A study of Mus musculus with 27 samples.

Results

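Macrophages and related myeloid cells were followed in mouse thyroid through 38 genes, picked by name as known markers of these cells out of 54532 gene rows in the deposited count table. All 38 genes had counts. Laser-microdissected thyroid tissue had been sequenced from the 3′ ends of polyadenylated transcripts in 27 libraries, 9 in each of 3 groups. The group NCT was normal thyroid of mice that were not exposed, NT was thyroid of exposed mice that looked normal but had abnormal tissue next to it, and PL was the proliferative lesion of the same exposed mice, so that each of 9 mice gave an NT and a PL library. The series title names radiation as the exposure. Each group held 6 females and 3 males. The sources used here give no strain, genotype, age, radiation dose or time after exposure. The replicate number of an NT or PL library is the number of its mouse, and NCT replicates are other mice.

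Macrophages are phagocytes that settle in every tissue, where they clear dead cells, take up lipids and debris and call in other leukocytes. Some descend from cells seeded before birth and others from blood monocytes. They need signals through the receptor encoded by Csf1r and the transcription factor PU.1, the product of Spi1. In endocrine glands they lie in the connective tissue and along the capillaries between the hormone-making cells, so the RNA of a captured area holds a small and variable macrophage share. In such bulk tissue fewer cells of a type and less RNA per cell cannot be told apart.

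The promoters of 4 genes are shown because the results turn on these genes: Cd163 and Cyba passed the test in a comparison, and Lyz2 has a neighbour of similar sequence, Lyz1. Each line is the 250 bases before the start site in RefSeq on GRCm38.p6, on the gene's own strand, with the letters AGGAA or TTCCT in capitals. AGGAA, and TTCCT on the other strand, is the centre of the purine-rich box bound by PU.1. The Cd163 stretch lies at chr6:124304401-124304650 on the plus strand, the Cyba stretch at chr8:122432941-122433190 on the minus strand, the Lyz2 stretch at chr10:117282273-117282522 on the minus strand and the Lyz1 stretch at chr10:117292869-117293118 on the minus strand.
Cd163: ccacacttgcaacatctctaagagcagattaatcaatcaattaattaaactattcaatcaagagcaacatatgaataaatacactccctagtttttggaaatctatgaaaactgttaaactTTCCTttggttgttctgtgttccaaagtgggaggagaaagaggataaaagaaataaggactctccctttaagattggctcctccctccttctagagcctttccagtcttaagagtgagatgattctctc
Cyba: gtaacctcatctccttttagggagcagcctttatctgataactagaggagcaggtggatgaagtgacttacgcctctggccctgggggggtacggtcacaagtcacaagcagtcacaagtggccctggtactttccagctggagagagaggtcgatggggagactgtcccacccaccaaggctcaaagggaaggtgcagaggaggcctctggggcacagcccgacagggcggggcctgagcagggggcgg
Lyz2: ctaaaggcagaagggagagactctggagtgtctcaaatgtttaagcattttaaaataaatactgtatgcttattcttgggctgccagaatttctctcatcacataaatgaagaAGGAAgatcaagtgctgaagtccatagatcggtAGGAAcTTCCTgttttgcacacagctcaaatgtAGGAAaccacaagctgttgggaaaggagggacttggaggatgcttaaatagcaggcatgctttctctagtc
Lyz1: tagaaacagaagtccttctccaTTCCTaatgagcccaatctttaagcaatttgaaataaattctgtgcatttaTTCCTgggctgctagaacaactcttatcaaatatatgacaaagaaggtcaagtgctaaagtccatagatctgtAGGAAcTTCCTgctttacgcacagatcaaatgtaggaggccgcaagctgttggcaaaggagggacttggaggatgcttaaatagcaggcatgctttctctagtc
The Cd163 stretch held 1 match, the Cyba stretch 0, and the Lyz2 and Lyz1 stretches 4 each. RefSeq promoter entries were found for 27 of the 38 genes, and 24 of those 27 (88.9%) had at least 1 match at their first start site, beside 60.2% of all 27025 genes with an entry. A match is a stretch of letters and not a known binding site. The Lyz1 and Lyz2 stretches were 79.4% identical.

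Libraries held 2923851 to 14148601 counts, with medians of 4622595 in NCT, 7220957 in NT and 6479022 in PL. Levels below are given as CPM, the counts scaled by each library's total and its TMM factor (trimmed mean of M values), and 3 counts corresponded to 0.202 to 1.33 CPM. Sequencing of 3′ ends gives counts that are not divided by gene length, so levels are compared between libraries and not between genes. Some libraries stood apart by transcripts that mark other tissues. Parathyroid hormone transcript (Pth) exceeded 2000 CPM in NCT 5, NCT 8, NT 7, NT 9 and PL 2, the airway transcript Bpifa1 exceeded 2000 CPM in NCT 8, NCT 9, NT 7, NT 8 and NT 9, and the gastric lipase transcript Lipf stood at 9792 CPM in NCT 9 against 7.71 to 29.2 CPM in the others.

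Few of the myeloid genes passed the test in any comparison. In lesions against the normal-looking tissue of the same mice, Cd163, the scavenger receptor for haemoglobin-haptoglobin complexes, fell, and none of the 38 rose. That was 1 of 38 called lower, where 1.31% of all 14461 tested genes were called lower, and 0 of 38 called higher, where 1.76% were. Called means an adjusted p under 0.05 in the quasi-likelihood test of edgeR with Benjamini-Hochberg adjustment over all tested genes. Fold changes were positive for 7 genes and negative for 31. The median log2 fold change of the 38 genes was -0.31, and that of all tested genes was 0.0025. Of the 38, 5 had an unadjusted p under 0.05 (13.2%), against 17.6% of all tested genes. The Wald test of DESeq2 called 4 of the 38 lower (Cd163, Ccr2, Clec10a and Csf2ra) and 1 higher (Cyba), where it called 9.06% of the 14180 genes with an adjusted p, 4.87% lower and 4.19% higher.

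In normal-looking tissue of exposed mice against tissue of non-exposed mice, none of the 37 tested genes was called by edgeR, where 0.0277% of all 14447 genes were called (0.00692% higher and 0.0208% lower). DESeq2 called none of them either, where it called 0.928% of all genes (0.235% higher and 0.692% lower). Lilrb4a was too low to be tested in this comparison. Fold changes were nevertheless mostly on the positive side, in 35 of 37 genes (94.6%) against 52.2% of all genes. The exceptions were Lyz2 and Pf4. The median log2 fold change was 0.47 for the 37 genes and 0.0135 for all genes, and 12 genes had an unadjusted p under 0.05 (32.4%), all of them positive, against 11.6% of all genes in either direction. The levels of these genes varied together across libraries, as the plot of all 27 libraries shows, so the counts are not 37 separate observations.

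In lesions against tissue of non-exposed mice, Cyba, a membrane subunit of the NADPH oxidase, rose, and none of the 38 genes fell. That was 1 of 38 called higher, where 5.45% of all 14234 tested genes were called higher, and 0 of 38 called lower, where 4.62% were. Fold changes were positive for 29 and negative for 9 genes, with a median log2 fold change of 0.33 against 0.0038 over all genes. Unadjusted p was under 0.05 for 6 of the 38 genes (15.8%), against 23.6% of all genes. DESeq2 called 3 higher (Cyba, Ccl2 and Msr1) and 1 lower (Cd163), where it called 13.1% of all genes, 6.89% higher and 6.22% lower. The 9 NT libraries enter the first and second comparison and the NCT and PL libraries are likewise each used in another comparison, so the 3 sets of values are not independent. For none of the 38 genes were the libraries of 2 groups fully separated in any of the 3 comparisons, and over all tested genes this held for 0.118% in PL against NT, 0.0554% in NT against NCT and 1.01% in PL against NCT.

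**Figure D1:**
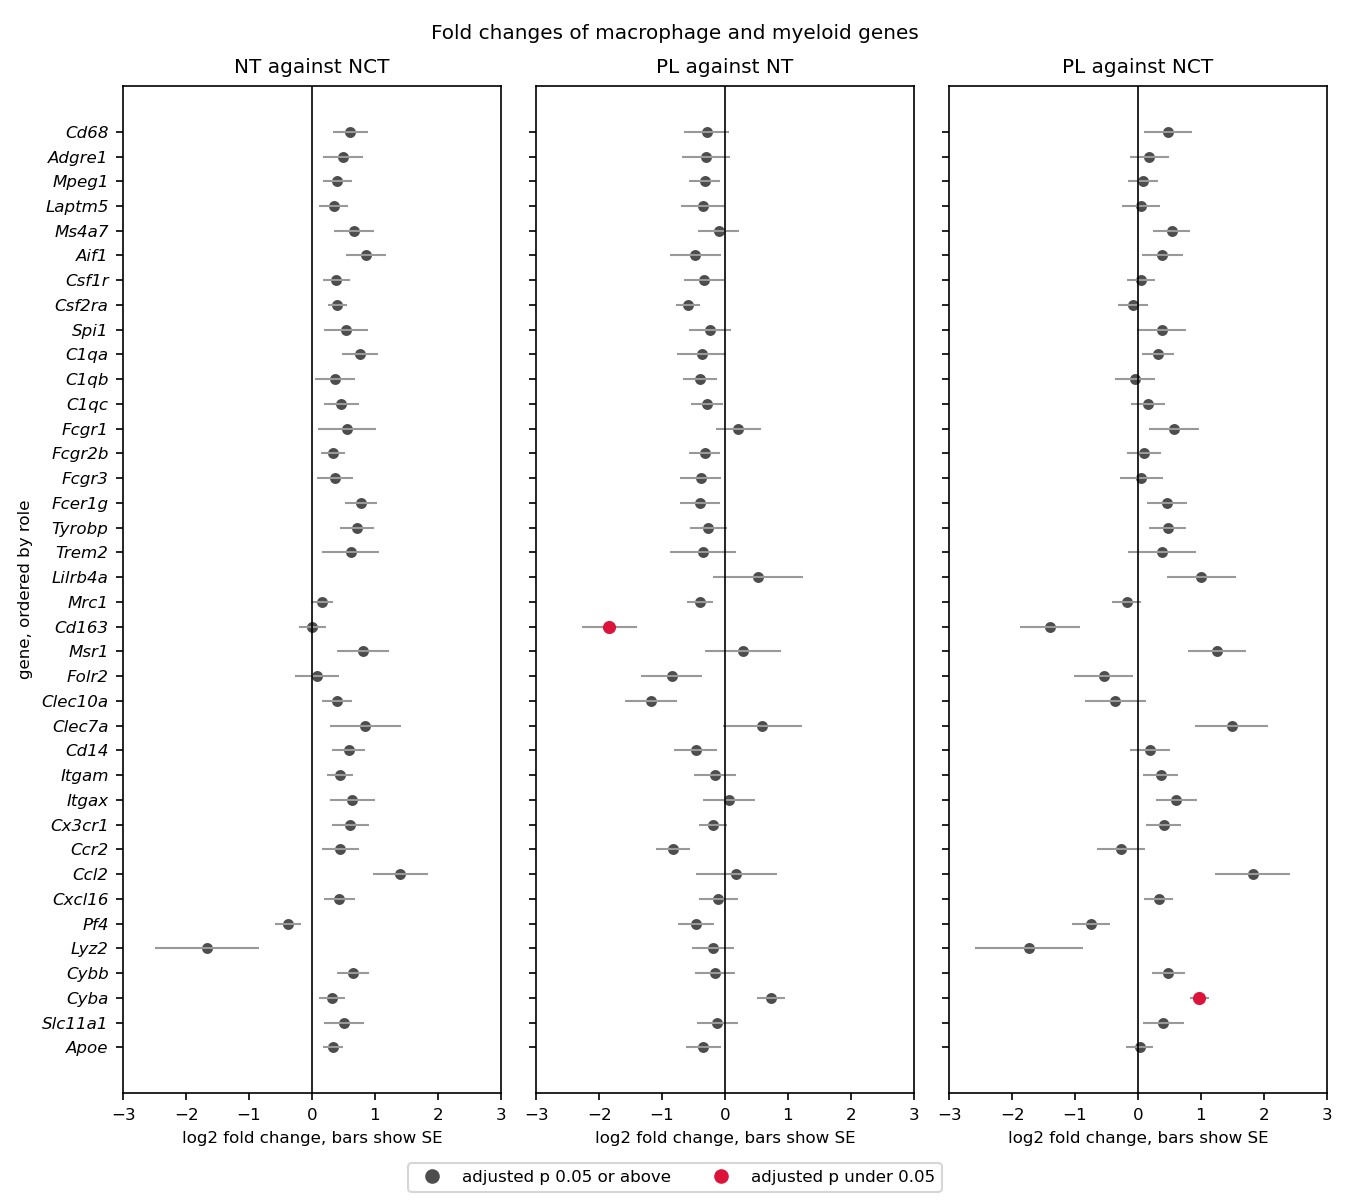
Log2 fold changes of the 38 genes (x axis, with the approximate standard error as bars) in the 3 comparisons, genes ordered by role on the y axis, red where the adjusted p was under 0.05. Cd163 at -1.84 in PL against NT and Cyba at 0.98 in PL against NCT are the red points, and 35 of 37 genes sit right of 0 in NT against NCT.

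The lesion-to-normal difference ran in opposite directions in different mice. In mice 2 and 3, 37 of the 38 genes were lower in the lesion than in the normal-looking tissue, with median log2 ratios of -1.03 and -2.17, computed from CPM plus 1. In mouse 6, 33 genes were lower and the median was -0.66. In mice 1, 7 and 9, by contrast, 32, 33 and 26 genes were higher in the lesion, with medians of 0.44, 0.88 and 0.78. Mice 4, 5 and 8 had 27, 29 and 21 genes lower and medians of -0.21, -0.22 and -0.04. The median over all mice depended on single mice: without mouse 3 the median log2 fold change over the 38 genes was -0.08, and without mouse 2 it was -0.18.

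**Figure D2:**
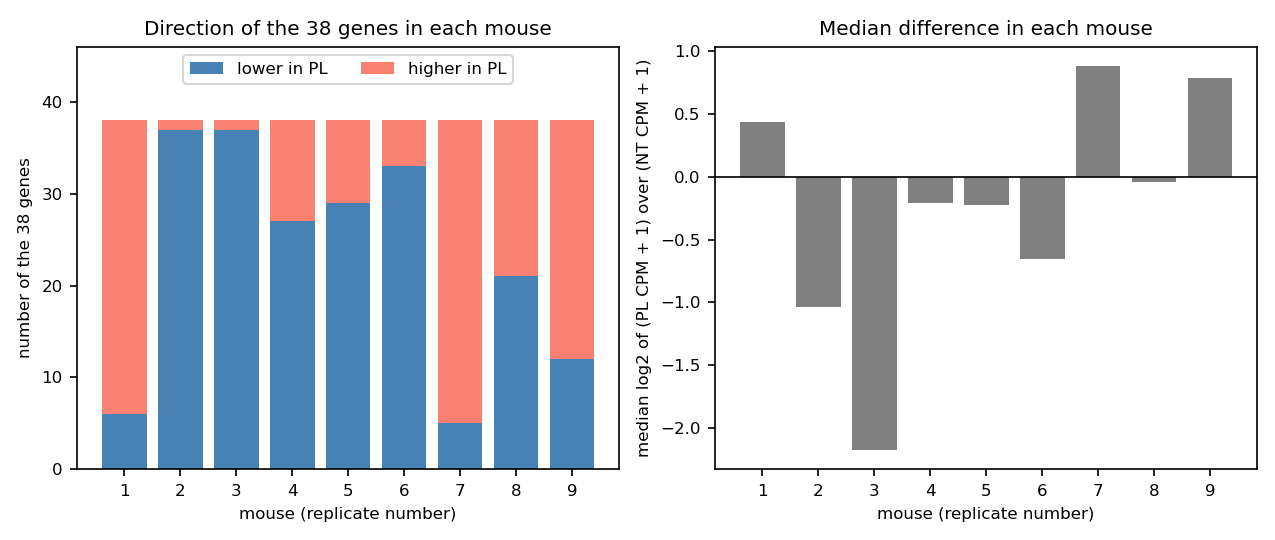
Number of the 38 genes lower (blue) or higher (red) in PL than in NT of the same mouse (left) and the median over the 38 genes of the log2 ratio of PL to NT, from CPM plus 1 (right), for mice 1 to 9. Mice 2 and 3 have 37 genes lower, and mouse 7 has 33 genes higher.

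The levels of many of the 38 genes also varied together from library to library within a group, which set apart a few libraries. NT 6 was the highest of the NT libraries for 26 of the 38 genes, and NT 7 and NT 9 were the lowest for 20 and 13. Among lesions, PL 1 was the highest for 22 genes and PL 3 the lowest for 29. Among NCT libraries, NCT 7 was the highest for 19 genes and NCT 9 the lowest for 17. NT 7 and NT 9 are also the NT libraries with the most Pth, at 18050 and 25710 CPM, and PL 2 had 27400 CPM. PL 3, the lowest lesion, had 65.7 CPM of Pth and 26.97 CPM of Bpifa1. The part of these transcripts in the myeloid levels was not tested, but values without those libraries were computed. The median log2 fold change of the 38 genes in PL against NT was -0.51 on leaving out each mouse whose NT or PL library passed 2000 CPM of Pth or Lipf, and -0.62 on leaving out those past 2000 CPM of Bpifa1. The mice left out were 2, 7 and 9 in the first fit and 7, 8 and 9 in the second. Mice 7 and 9 had the highest medians of PL to NT, at 0.88 and 0.78, so leaving them out lowers the median. In NT against NCT the median log2 fold change was 0.52 and 0.62 on leaving out the libraries past these limits, and 0.34 without NT 6. In PL against NCT it was 0.33 and 0.22, and 0.18 without PL 1.

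**Figure D3:**
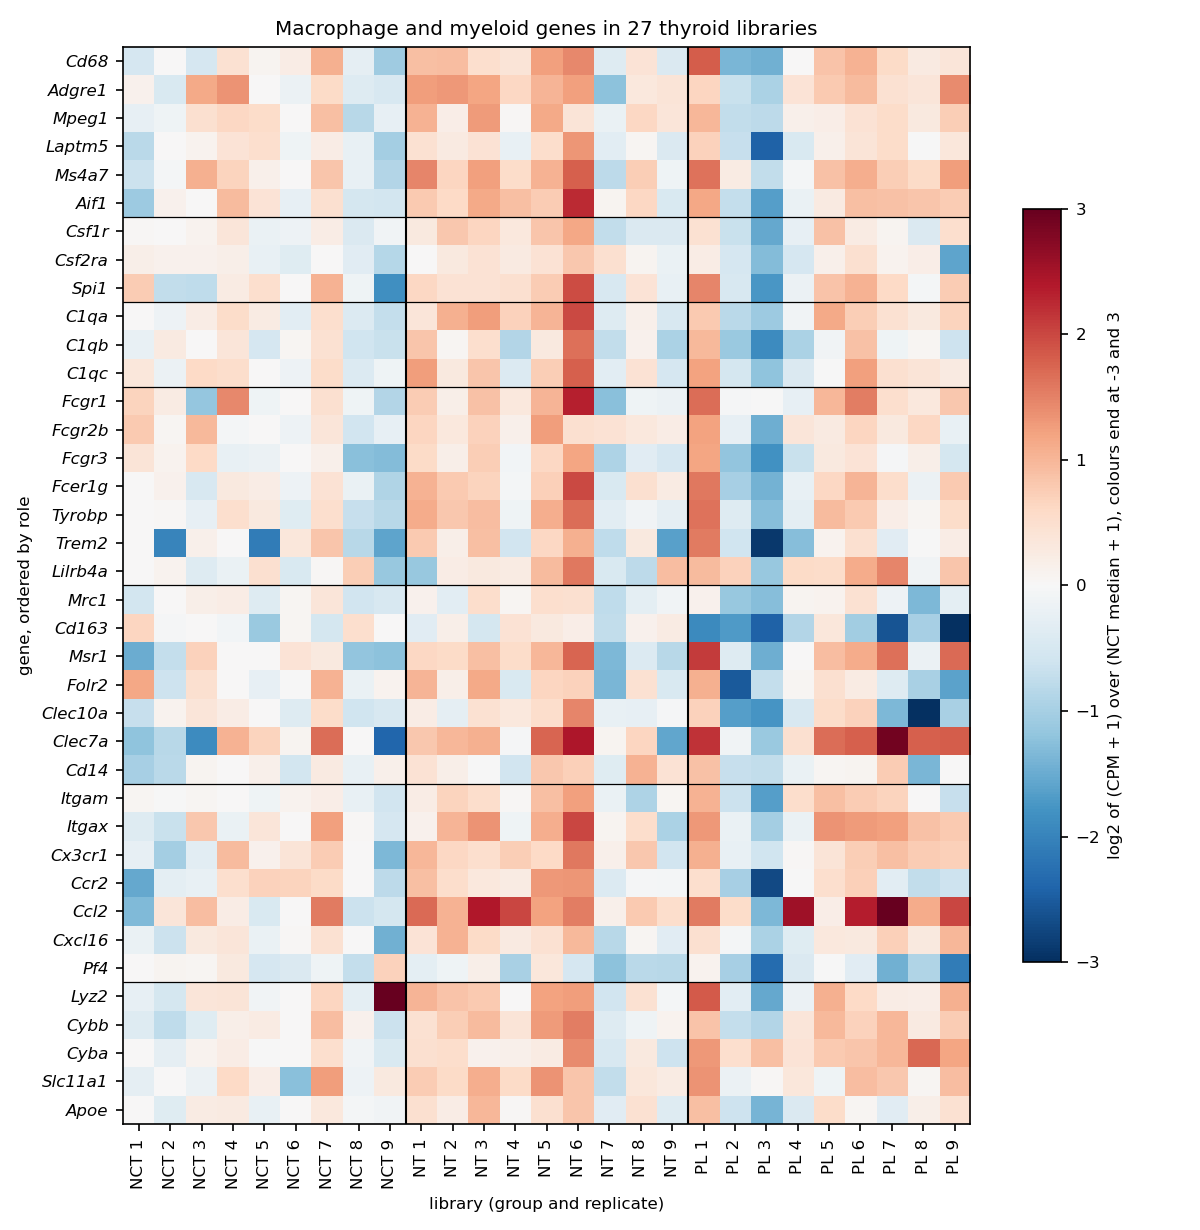
Log2 ratio of each library's level (CPM plus 1) to the NCT median, for 38 genes (rows, ordered by role) in 27 libraries (columns, NCT, NT and PL), red above and blue below, with colours ending at -3 and 3. PL 3 is mostly blue, NT 6 and PL 1 are mostly red, and the dark cell in NCT 9 is Lyz2.

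The surface and phagosome markers were present in every library. Cd68, a glycoprotein of late endosomes, ranged from 10.6 to 50.2 CPM in NCT (median 23.3), from 17.1 to 64.9 CPM in NT (median 33.6) and from 7.96 to 85.0 CPM in PL (median 30.4). Adgre1, which encodes the mouse macrophage antigen F4/80, had medians of 17.7, 36.9 and 24.4 CPM in NCT, NT and PL, and its lowest level of all was 6.91 CPM in NT 7. Mpeg1, a pore-forming protein of phagosomes, had medians of 48.9, 64.6 and 60.5 CPM. Ms4a7, a membrane protein of tissue macrophages, had medians of 24.6, 41.9 and 41.7 CPM. For all 4 genes the 3 groups overlapped.

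Laptm5, a lysosomal membrane protein of leukocytes, lay at 44.8, 92.2 and 130 CPM (lowest, median and highest) in NCT, at 68.1, 112 and 233 CPM in NT and at 16.3, 102 and 149 CPM in PL. Its log2 fold changes were -0.35 (SE 0.35) in PL against NT, 0.34 (SE 0.23) in NT against NCT and 0.05 (SE 0.30) in PL against NCT, with adjusted p of 0.662, 0.589 and 0.948. Aif1, which encodes the actin-binding protein IBA1 used to stain macrophages, lay at 9.31, 21.1 and 41.6 CPM in NCT, at 15.01, 36.3 and 104 CPM in NT and at 6.01, 36.5 and 48.4 CPM in PL. Aif1 had a log2 fold change of 0.86 (SE 0.32, adjusted p = 0.311) in NT against NCT, and 8 of 9 NT libraries were above the NCT median. NT 6 was the highest library for both genes and PL 3 the lowest of all for both.

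The receptors for the growth factors that keep macrophages alive were not called by edgeR in any of the 3 comparisons. Csf1r, the receptor of CSF1 and IL-34, lay at 55.2, 75.5 and 97.5 CPM in NCT, at 44.8, 93.5 and 170 CPM in NT and at 25.2, 80.5 and 140 CPM in PL, and its adjusted p was 0.646, 0.487 and 0.926 in PL against NT, NT against NCT and PL against NCT. The Csf1r locus overlaps Hmgxb3, a gene on the other strand with a mean level of 10.7 CPM, and the sources used here do not give the strand setting of the counting. Csf2ra, the alpha chain of the GM-CSF receptor, lay at 31.0, 57.4 and 65.3 CPM in NCT, at 49.7, 70.5 and 102 CPM in NT and at 18.6, 61.9 and 79.9 CPM in PL. Its log2 fold change was -0.59 (SE 0.19, adjusted p = 0.106) in PL against NT, with 7 of 9 lesions lower than their partner, and 0.41 (SE 0.14, adjusted p = 0.280) in NT against NCT. DESeq2 called it lower in PL against NT (-0.60, adjusted p = 0.0308). Spi1 had medians of 12.2, 16.8 and 18.8 CPM in NCT, NT and PL, and ranged from 2.66 CPM in NCT 9 to 50.4 CPM in NT 6.

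The 3 chains of C1q, the recognition molecule of the classical complement pathway and a staple product of tissue macrophages, had their extremes in the same libraries. C1qa lay at 80.3, 132 and 196 CPM in NCT, at 95.0, 215 and 527 CPM in NT and at 61.3, 182 and 290 CPM in PL. C1qb lay at 39.0, 62.3 and 86.3 CPM in NCT, at 31.7, 68.8 and 198 CPM in NT and at 16.1, 56.6 and 123 CPM in PL. C1qc lay at 58.1, 77.7 and 118 CPM in NCT, at 54.9, 105 and 270 CPM in NT and at 33.0, 94.3 and 184 CPM in PL. For each chain the highest library of all was NT 6 and the lowest of all was PL 3, and no chain separated 2 groups. Log2 fold changes in PL against NT were -0.37 (SE 0.39), -0.40 (SE 0.27) and -0.28 (SE 0.26) for C1qa, C1qb and C1qc, with adjusted p of 0.685, 0.496 and 0.623. In NT against NCT they were 0.77 (SE 0.29), 0.37 (SE 0.31) and 0.47 (SE 0.28), with adjusted p of 0.321, 0.683 and 0.545.

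Fc receptors bind antibody, and the signals of the activating ones run through the adaptor chain Fcer1g. Tyrobp is an adaptor chain of other receptors. Fcer1g lay at 19.5, 37.1 and 50.5 CPM in NCT, at 26.6, 59.6 and 149 CPM in NT and at 13.3, 53.9 and 113 CPM in PL. Its log2 fold change was 0.78 (SE 0.25, adjusted p = 0.254) in NT against NCT, -0.40 (SE 0.32, adjusted p = 0.580) in PL against NT and 0.46 (SE 0.32, adjusted p = 0.409) in PL against NCT. Tyrobp had medians of 42.2, 74.6 and 48.3 CPM in NCT, NT and PL. Among the receptors, Fcgr1 for monomeric IgG had medians of 3.26, 4.34 and 5.04 CPM, the inhibitory Fcgr2b 23.4, 32.2 and 29.1 CPM, and the activating Fcgr3 27.9, 31.8 and 27.4 CPM. Trem2, a lipid-sensing receptor that pairs with Tyrobp, had medians of 10.1, 12.6 and 9.94 CPM and spanned 0.488 CPM in PL 3 to 31.7 CPM in PL 1. Lilrb4a, an inhibitory receptor, had 0 counts in NCT 9, NT 1 and PL 3, where 3 counts would be 1.33, 0.523 and 0.487 CPM, and at most 5.56 CPM elsewhere. The groups overlapped for all 7 genes.

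The scavenger and lectin receptors held the only gene called between lesion and normal-looking tissue of the same mice. Cd163 lay at 7.19, 16.6 and 26.4 CPM in NCT, at 9.47, 18.9 and 22.7 CPM in NT and at 0.299, 4.40 and 21.3 CPM in PL. The lowest lesion, PL 9, rested on 4 counts, and its partner NT 9 on 200. In 8 of 9 mice Cd163 was lower in the lesion, and the exception, mouse 5, had 20.4 CPM in NT and 21.3 CPM in PL, so that the groups overlapped through PL 5. Cd163 fell by 1.84 on the log2 scale in PL against NT (SE 0.44, adjusted p = 0.0422, edgeR). In NT against NCT its log2 fold change was 0.00 (SE 0.22, adjusted p = 0.997). Against NCT, the lesions had a log2 fold change of -1.40 (SE 0.48, adjusted p = 0.0702), and 8 of 9 were below the NCT median.

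The Cd163 call lay close to the threshold. The call was kept on leaving out mouse 5 or mouse 9, and the log2 fold changes of those 2 fits were -2.10 and -1.50. It was lost on leaving out mouse 1, 2, 3, 4, 6, 7 or 8, with adjusted p of 0.0572 to 0.104 and log2 fold changes of -1.93 to -1.78 in those 7 fits. It was also lost without pairing by mouse (-1.40, adjusted p = 0.115) and without the mice that had libraries rich in Pth or Lipf (-1.31, adjusted p = 0.0754) or in Bpifa1 (-1.44, adjusted p = 0.0783). In PL against NCT it became a call without PL 5 (-1.89, adjusted p = 0.00496) or without PL 9 (-1.22, adjusted p = 0.0448).

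Cd163 was set against C1q to see whether it followed the general myeloid level, a description chosen after its values were seen and given without a test. Cd163 amounted to 2.58%, 6.14% and 12.0% (lowest, median and highest) of the summed C1q chains in NCT, to 1.92%, 4.33% and 11.0% in NT and to 0.0870%, 2.06% and 5.01% in PL. The percentage was lower in the lesion in 8 of 9 mice, while the C1q sum itself was lower in 5 of 9. In mouse 3, counted among the 8, the percentages were nearly equal, at 2.066% in NT and 2.062% in PL. PL 1 and PL 9, with C1q sums of 535 and 344 CPM, had only 3.65 and 0.299 CPM of Cd163.

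The other receptors of this group did not move as one. Clec10a, a galactose-binding lectin, lay at 7.96, 13.4 and 20.03 CPM in NCT, at 10.9, 15.9 and 38.5 CPM in NT and at 0.171, 6.28 and 22.2 CPM in PL, where the lowest value was 1 count in PL 8. It was lower in the lesion in 7 of 9 mice, with a log2 fold change of -1.17 (SE 0.42, adjusted p = 0.152). Clec7a, which encodes the beta-glucan receptor dectin-1, lay at 1.33, 11.1 and 37.6 CPM in NCT, at 3.08, 20.04 and 63.4 CPM in NT and at 4.55, 40.6 and 88.7 CPM in PL. Its log2 fold change was 0.59 (SE 0.63, adjusted p = 0.689) in PL against NT and 1.49 (SE 0.58, adjusted p = 0.119) in PL against NCT, where it passed the test only without NCT 7 (1.86, adjusted p = 0.0486). In the annotation used, Clec7a is a polymorphic pseudogene.

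Msr1, the class A scavenger receptor for modified lipoproteins, lay at 2.03, 7.55 and 12.8 CPM in NCT, at 2.37, 11.8 and 27.8 CPM in NT and at 2.11, 15.1 and 35.8 CPM in PL. Its log2 fold change was 1.25 (SE 0.46, adjusted p = 0.0915) in PL against NCT, which passed without PL 3 (1.41, adjusted p = 0.0372), and 0.28 (SE 0.60, adjusted p = 0.859) in PL against NT. The mannose receptor Mrc1 had medians of 56.9, 59.2 and 51.0 CPM in NCT, NT and PL. Folr2, a folate receptor of tissue-resident macrophages, had medians of 5.69, 8.22 and 4.07 CPM, with 0.157 CPM as its lowest in PL 2. Cd14, the co-receptor for bacterial lipopolysaccharide, had medians of 7.41, 10.3 and 7.55 CPM.

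**Figure D4:**
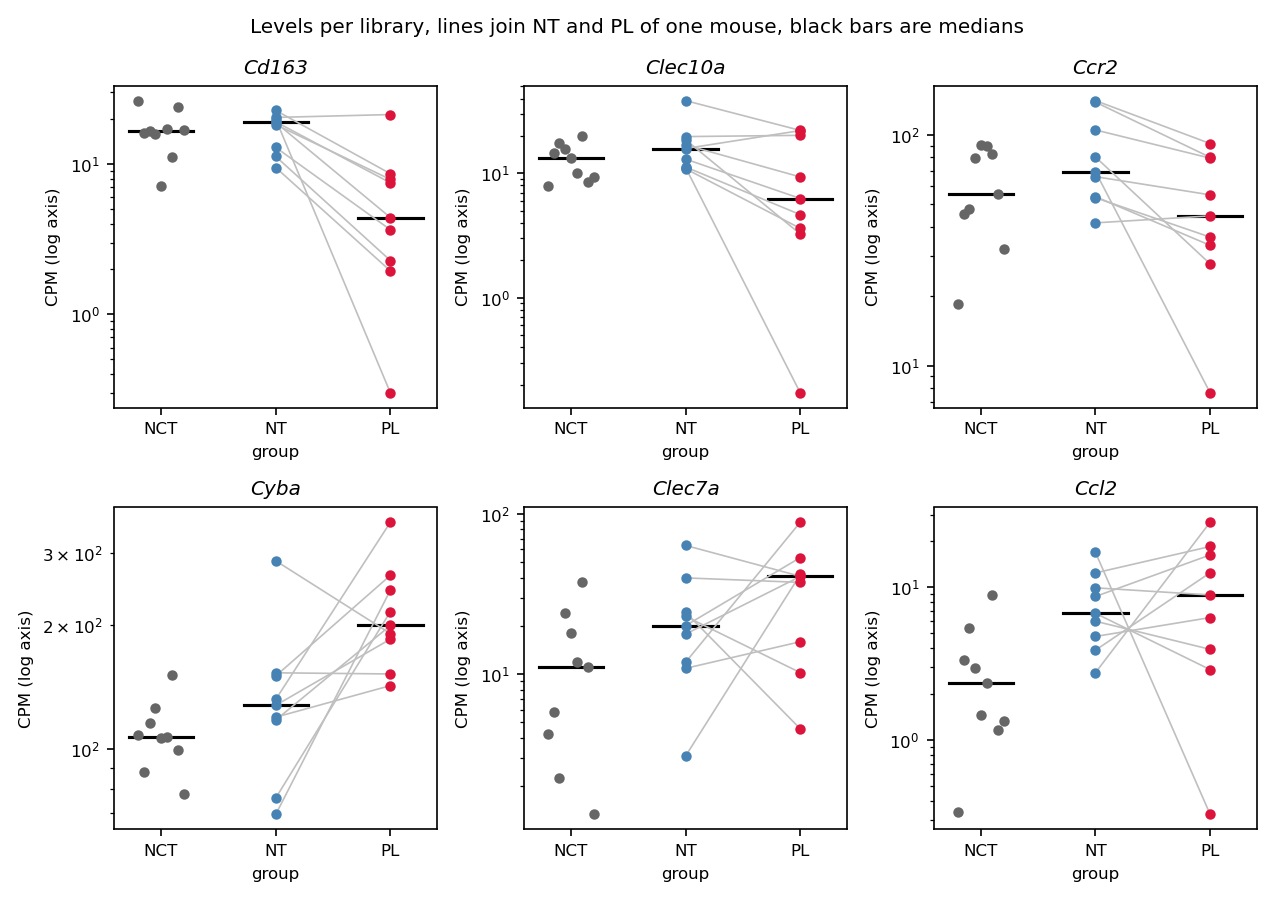
Levels in CPM (log axis) of Cd163, Clec10a, Ccr2, Cyba, Clec7a and Ccl2 in each library of NCT, NT and PL, with lines joining the NT and PL libraries of 1 mouse and black bars at group medians. Cd163 is lower in PL than in NT in 8 of 9 mice, and the lowest Cyba lesion, at 143 CPM, lies above 8 of the 9 NCT libraries.

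Among the genes of migration and adhesion, the receptor Ccr2 and its ligand Ccl2 took different courses. Ccr2, which draws monocytes out of the marrow and blood, lay at 18.6, 55.8 and 90.7 CPM in NCT, at 41.6, 69.4 and 141 CPM in NT and at 7.64, 44.6 and 91.8 CPM in PL. It was lower in the lesion in 8 of 9 mice, with a log2 fold change of -0.83 (SE 0.27, adjusted p = 0.124). Ccl2 lay at 0.339, 2.37 and 8.90 CPM in NCT, at 2.76, 6.76 and 16.9 CPM in NT and at 0.325, 8.92 and 26.8 CPM in PL. All 9 NT libraries and 8 of 9 PL libraries were above the NCT median of Ccl2, with log2 fold changes of 1.41 (SE 0.44, adjusted p = 0.223) and 1.82 (SE 0.60, adjusted p = 0.0564). The second of these passed the test on leaving out PL 2, PL 3, PL 5 or NCT 7, with adjusted p of 0.0472, 0.0173, 0.0389 and 0.0217. Ccl2 is also made by fibroblasts, endothelial cells and epithelium, and its source here was not tested.

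The scavenger chemokine Cxcl16 lay at 24.0, 66.7 and 91.5 CPM in NCT, at 36.9, 88.3 and 138 CPM in NT and at 34.1, 82.1 and 134 CPM in PL, with adjusted p of 0.905, 0.505 and 0.432 in PL against NT, NT against NCT and PL against NCT. The integrin chains Itgam and Itgax had medians of 18.4, 21.6 and 27.1 CPM and of 9.19, 13.8 and 17.7 CPM in NCT, NT and PL. The fractalkine receptor Cx3cr1 had medians of 43.5, 67.5 and 71.7 CPM, and its locus overlaps Wdr48, which averaged 35.1 CPM. Pf4, a chemokine of platelets that tissue macrophages also make, had medians of 41.3, 29.0 and 21.8 CPM, with its highest level in NCT 9.

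Cyba was the member called between lesions and tissue of non-exposed mice. It lay at 78.1, 107 and 152 CPM in NCT, at 69.5, 128 and 287 CPM in NT and at 143, 200 and 356 CPM in PL. All 9 lesions were above the NCT median, and the groups overlapped only because NCT 7 at 152 CPM lay above PL 4 at 143 CPM. Cyba rose by 0.98 on the log2 scale in PL against NCT (SE 0.15, adjusted p = 0.00026, edgeR), and every alternative kept the call, with log2 fold changes of 0.78 to 1.06 and adjusted p of at most 0.0112. In PL against NT its log2 fold change was 0.73 (SE 0.22, adjusted p = 0.0995), it was higher in the lesion in 7 of 9 mice, and it passed the test without mouse 6 (0.89, adjusted p = 0.0247), whose NT library was the highest of its group.

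Cybb, the catalytic subunit that Cyba stabilises in phagocytes, was not called. It lay at 26.0, 44.5 and 86.1 CPM in NCT, at 33.5, 61.0 and 131 CPM in NT and at 23.6, 72.9 and 89.4 CPM in PL. The ratio of Cyba to Cybb was 1.76, 2.49 and 3.40 (lowest, median and highest) in NCT, 1.18, 2.05 and 3.25 in NT and 2.08, 3.19 and 8.48 in PL, and it was higher in the lesion in 9 of 9 mice. The ratio was chosen after the values were seen and has no test. Cyba also serves NADPH oxidases of cells that are not myeloid, and its source in the lesions was not tested. Slc11a1, a metal transporter of phagosomes, had medians of 4.93, 7.89 and 6.55 CPM in NCT, NT and PL.

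Lyz2, the lysozyme of macrophages, had its comparisons with NCT decided by 1 library. In NCT 9 it reached 16520 CPM, beside 317 to 726 CPM in the other 8 NCT libraries, 308 to 1105 CPM in NT and 157 to 1653 CPM in PL. In the same library Lyz1 stood at 2157 CPM against 3.61 to 38.7 CPM in all others, and Lipf stood at 9792 CPM, while the same library was the lowest of its group for 17 of the 38 genes. Log2 fold changes of Lyz2 were -1.67 (SE 0.83, adjusted p = 0.455) in NT against NCT and -1.73 (SE 0.86, adjusted p = 0.240) in PL against NCT. Without NCT 9 they turned to 0.58 (adjusted p = 0.423) and 0.51 (adjusted p = 0.411). The transcripts of Lyz2 and Lyz1 were 92.0% identical, with a longest shared run of 118 bases, and were 91.2% identical over their last 200 bases, at the end that was sequenced. Where the reads fell was not examined. Reads of either gene could have been split or dropped, so the levels of both are uncertain.

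**Figure D5:**
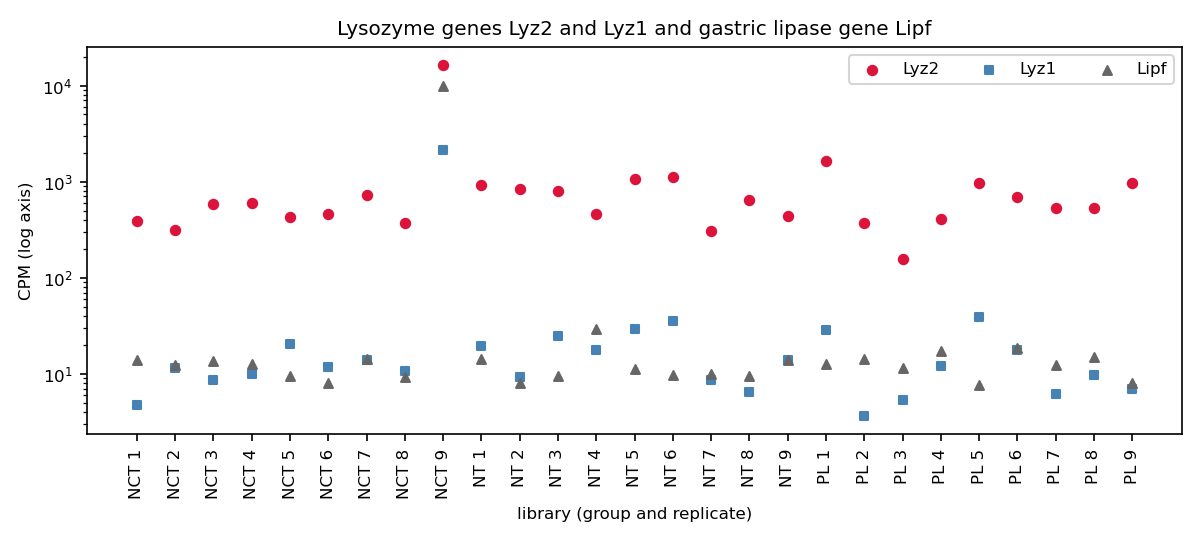
Levels in CPM (log axis) of Lyz2 (circles), Lyz1 (squares) and Lipf (triangles) in each of the 27 libraries (x axis). NCT 9 stands apart for all 3 genes, at 16520, 2157 and 9792 CPM.

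Apoe, which carries lipids out of macrophages and is made by many other cells, lay at 290, 376 and 470 CPM in NCT, at 286, 518 and 748 CPM in NT and at 143, 392 and 705 CPM in PL. Its log2 fold changes were -0.34 (SE 0.27, adjusted p = 0.572) in PL against NT, 0.33 (SE 0.16, adjusted p = 0.414) in NT against NCT and 0.03 (SE 0.21, adjusted p = 0.962) in PL against NCT. PL 3 and PL 1 were again the lowest and highest lesions. Over the 20 genes for which only levels are given above, log2 fold changes ran from -0.85 (Folr2) to 0.53 (Lilrb4a) in PL against NT, from -0.38 (Pf4) to 0.71 (Tyrobp) in NT against NCT and from -0.75 (Pf4) to 1.01 (Lilrb4a) in PL against NCT, with adjusted p of at least 0.343, 0.328 and 0.119.

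Of the other genes of the same pathways, 5 passed the test of edgeR in PL against NCT and 0 in the other comparisons, over the lists of receptor signalling, growth factors and attractants, transcription factors and complement. These lists had 13, 13, 10 and 10 genes tested in PL against NCT, where edgeR called 10.1% of all tested genes. It called 3.08% of all tested genes in PL against NT and 0.0277% in NT against NCT. Of the 13 genes of activating and inhibitory receptor signalling, 0 were called by edgeR or DESeq2 in PL against NT and in NT against NCT, with unadjusted p under 0.05 for 2 and 7, while Lyn, a kinase that feeds both kinds of receptor and is also found in B cells and epithelium, rose in PL against NCT. Lyn lay at 46.6, 65.5 and 90.01 CPM in NCT, at 47.4, 88.0 and 133 CPM in NT and at 73.7, 117 and 155 CPM in PL, with a log2 fold change of 0.83 (SE 0.14, adjusted p = 0.000695, edgeR) and 9 of 9 lesions above the NCT median. Of 18 growth factors and attractants of myeloid cells, 13 were tested in PL against NCT and 2 fell, while 0 of 14 were called by edgeR or DESeq2 in PL against NT and in NT against NCT (unadjusted p under 0.05 for 2 and 3). These were Gas6, which bridges dying cells to macrophage receptors (-1.50, SE 0.31, adjusted p = 0.00489), and Cd200, whose product restrains macrophages (-0.68, SE 0.17, adjusted p = 0.0132). Both were below the NCT median in 9 of 9 lesions. Both lost the call when the leading digits of the mouse number entered the fit (adjusted p of 0.101 and 0.272). Libraries whose leading digits occur in only 1 of the groups do not inform the group difference in that fit. By its mouse label NCT 4 is such a library, but its title gives another mouse number, with the leading digits of PL 1. The label was used in every fit with the mouse number, and the number in the title was not tried. Cd200 lost the call also in females alone (adjusted p = 0.0657). Of the 11 macrophage transcription factors on the list other than Spi1, 10 were tested in each comparison and none was called by edgeR. Unadjusted p was under 0.05 for 2, 1 and 2 in PL against NT, NT against NCT and PL against NCT, and DESeq2 called Zeb2 lower in PL against NT. Median log2 fold changes of the tested genes of those 3 lists in PL against NCT were 0.27, 0.54 and -0.26.

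Of the complement list beyond the C1q chains, 10 of 11 genes were tested, and C1ra and C1s1, the proteases that form the C1 complex with C1q, fell in PL against NCT. C1ra lay at 74.4, 103 and 163 CPM in NCT, at 57.4, 86.7 and 158 CPM in NT and at 28.1, 67.9 and 100.1 CPM in PL, with a log2 fold change of -0.81 (SE 0.25, adjusted p = 0.0422, edgeR). C1s1 lay at 45.0, 79.6 and 120 CPM in NCT, at 43.6, 70.04 and 136 CPM in NT and at 28.6, 58.2 and 77.1 CPM in PL, with a log2 fold change of -0.61 (SE 0.19, adjusted p = 0.0439, edgeR). All 9 lesions were below the NCT median for both, and the groups overlapped. Both calls lay close to the threshold. That of C1ra was lost on leaving out PL 1, 2, 3, 7, 8 or 9 or NCT 1, 2, 3, 4, 5 or 7 (adjusted p of at most 0.0832), and that of C1s1 on leaving out the same PL libraries or NCT 1, 2, 3, 4, 5, 6, 7 or 9 (adjusted p of at most 0.0955). Both were also lost in females (0.0626 and 0.136), without libraries rich in Pth or Lipf (0.0605 and 0.0661) and with the leading digits of the mouse number in the fit (0.323 and 0.365), C1ra with no filter on low counts (0.0887) and C1s1 with all 27 libraries in 1 fit (0.0717). In PL against NT, 0 of the 10 were called by edgeR, 7 had an unadjusted p under 0.05, and the genes DESeq2 called lower included Serping1, C1ra and C4b. The median log2 fold change was -0.58 there and -0.11 in PL against NCT, where DESeq2 called C1ra and C1s1 lower and C3 higher. In NT against NCT it was 0.42, and 0 were called by edgeR or DESeq2 (unadjusted p under 0.05 for 4). C1ra and C1s1 each have a close copy in the mouse genome, so their counts are uncertain. Fibroblasts and other stromal cells make these proteases too, and their source here was not tested.

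Marker genes of other cells had the following levels in the same libraries. The 10 general leukocyte genes had summed levels of 205 to 484 CPM in NCT, 249 to 683 CPM in NT and 143 to 606 CPM in PL, with the highest NT and PL libraries again NT 6 and PL 1, and none was called by edgeR or DESeq2 (unadjusted p under 0.05 for 1, 2 and 0 in PL against NT, NT against NCT and PL against NCT). The 12 neutrophil genes summed to at most 37.0 CPM in any library, and Elane had 0 counts in all 27. T and NK cell genes summed to at most 71.2 CPM. Markers of B and plasma cells reached 7101 CPM in NT 6 and 3319 CPM in PL 1. No tested gene of these 3 lists was called by edgeR or DESeq2 in any comparison, and 1 T and NK cell gene had an unadjusted p under 0.05, in PL against NT. Many were too low to be tested. Only 2 of the 12 neutrophil genes were tested in each comparison. In PL against NT, NT against NCT and PL against NCT, 8, 8 and 7 of 10 T and NK cell genes were tested. For B and plasma cells it was 6, 5 and 5 of 8. Fibroblast genes summed to a median of 2369 CPM in NCT, 2257 CPM in NT and 1172 CPM in PL. edgeR called 1 of their 8 lower in PL against NT and 4 of 8 in PL against NCT. It called 1.31% and 4.62% of all tested genes lower there. DESeq2 called 5 and 4 of the 8 lower, beside 4.87% and 6.22% of all genes. In PL against NT all 8 fold changes were negative, with a median log2 fold change of -1.11. The edgeR call in PL against NT, of Col6a2, was lost in females (adjusted p = 0.212) and without mice rich in Pth or Lipf (0.109) or in Bpifa1 (0.130). The edgeR calls in PL against NCT that were refitted were lost in 0, 4 and 19 refits. Endothelial genes summed to medians of 729, 765 and 609 CPM in NCT, NT and PL, and edgeR called 1 of 8, Tek, lower in PL against NCT and 0 in PL against NT (unadjusted p under 0.05 for 3), where DESeq2 called Emcn lower. The Tek call (-1.03, SE 0.33, adjusted p = 0.0478) was lost on leaving out any NCT library or PL 2, 6, 7, 8 or 9, with adjusted p of at most 0.103 in those fits. Counting the other alternatives, 20 refits lost the Tek call, with adjusted p of up to 0.295.

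The lists of other tissues and of the thyroid itself differed more between the groups. Adipocyte genes summed to medians of 1049, 422 and 322 CPM in NCT, NT and PL, with the highest sum, 5176 CPM, in NCT 9. edgeR called 0 of 7 in any comparison (unadjusted p under 0.05 for 0, 6 and 6 in PL against NT, NT against NCT and PL against NCT), and DESeq2 called 3 lower in NT against NCT and 6 lower in PL against NCT. Airway and gland genes had median sums of 1374, 1256 and 132 CPM, and 5 of 11 were called lower in PL against NT and 7 of 9 in PL against NCT. Parathyroid genes had median sums of 551, 333 and 93.6 CPM and reached 45660 CPM in PL 2. edgeR called 0 of them (unadjusted p under 0.05 for 0 in each comparison), with a median log2 fold change of 1.29 in PL against NCT, where DESeq2 called 3 lower. C cell genes, of the calcitonin-making cells, had median sums of 3345, 1375 and 69.4 CPM, and 4 of 4 were called lower in PL against NT and in PL against NCT. Among follicular thyroid genes, Tshr rose in PL against NT and in PL against NCT, and Tg fell in PL against NCT. The Tshr call in PL against NT was lost in females (adjusted p = 0.141) and without mice rich in Pth or Lipf (0.0930) or in Bpifa1 (0.107), and the Tg call was lost without NCT 1 (0.0509), in females (0.0796), with the mouse number in the fit (0.0680) and with no filter on low counts (0.0511). In NT against NCT edgeR called 0 genes of the fibroblast, endothelial, adipocyte, airway, parathyroid, C cell and follicular lists, with unadjusted p under 0.05 for 1, 1, 6, 4, 0, 3 and 2 of them, and DESeq2 called Pax8 lower besides the 3 adipocyte genes. The part of this cell content in the myeloid values was not tested.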

How the data were processed

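The authors deposited 1 table of raw read counts per gene with no normalization. Per the submitters' processing notes, which give no version or role, STAR, featureCounts, DESeq2 and the build GRCm38 were involved, and RNA extraction and library kits are named per the labels' protocols. The sources used here state neither strand setting nor annotation release. Gene names came from GENCODE M21, which matched 54409 of 54532 rows, and the other rows held 0.0251% of counts.

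CPM used TMM factors (trimmed mean of M values) computed on 27 libraries together. Each comparison was fitted on its own 18 libraries with edgeR 4.0.16 in R 4.3.3 (TMM, filterByExpr with minimum count 10, robust quasi-likelihood F test, Benjamini-Hochberg adjustment at 0.05 over all tested genes). PL against NT kept the mouse as a block, since the mouse number in the labels pairs the libraries. Within pairs the deviations from group means correlated at -0.0163 to 0.212, and 5 of 9 pairs were above 0.1. Standard errors are approximate, as the log2 fold change over the root of the F statistic. No 2 libraries of a group matched within sampling noise (lowest chi-square per degree of freedom 13.2). The pipeline was tested on simulated data.

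The members and 19 other gene lists were chosen with earlier results of these data known. The result of 1 of these lists, and of single genes of others, is not reported here. Full statistics go to members past the threshold in any comparison, the 5 with the smallest p in each and the 10 with the highest mean level. From each other list the genes considered for naming were those past the threshold or, failing that, the one with the smallest p. Alternatives changed the scaling, the filter, the test (DESeq2 1.42.0 Wald), the block, covariates (sex, or the first 5 digits of the mouse number) and the libraries (females only, each left out in turn, or without those over 2000 CPM of Pth or Lipf, or of Bpifa1). Intervals for counting are not given because replicates set the error.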

Additional observations from a re-analysis of the deposited data

Results flagged for a closer look

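Levels of the 38 genes were screened within each group for a highest or lowest library that lay far from the rest, by the gap to its nearest neighbour over the whole range of the group. Chance flags about 1 in 20 groups only where values are independent and normally distributed. Here CPM was screened without a log scale and the genes vary together, so the number of flags cannot be judged by that share. Of 114 groups, 14 stood out, all through their highest library, and 8 of the 14 came from NT 6.

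NT 6 stood apart for Laptm5 at 233 CPM, for Aif1 at 103.6 CPM, for Spi1 at 50.35 CPM, for C1qb at 197.5 CPM, for Fcgr1 at 20.29 CPM, for Fcer1g at 149.1 CPM, for Clec10a at 38.47 CPM and for Cyba at 286.9 CPM. The nearest NT libraries were at 133, 47.9, 21.5, 112, 7.67, 77.2, 19.8 and 153 CPM. NT 6 also had the most B and plasma cell transcript of its group, at 7101 CPM in sum.

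NT 5 stood apart for Fcgr2b at 57.07 CPM. Among the NCT libraries, NCT 4 stood apart for Fcgr1 at 10.66 CPM, NCT 7 for Cybb at 86.06 CPM and NCT 9 for Lyz2 at 16520 CPM, where the nearest library was at 726 CPM. Among the lesions, PL 1 stood apart for Trem2 at 31.71 CPM and PL 5 for Cd163 at 21.33 CPM, where the next lesion was at 8.61 CPM.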

How the results depend on the processing

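Over 100 fold changes of single genes and 2559 refits of them, 2336 kept their direction and side of the threshold, 129 lost a call, 34 gained one and 60 changed sign. Genes called in PL against NT (445) numbered 1285 with DESeq2, 832 with no filter, 6 in females only, 95 without mice rich in Pth or Lipf, 46 without mice rich in Bpifa1, and 137 to 529 on leaving out 1 mouse, with 257, 209, 240, 234 and 137 without mice 2, 3, 4, 7 and 8. Without the replicate block, that is without pairing by mouse, 402 were called. Genes called in NT against NCT (4) numbered 134 with DESeq2, 15 with no filter, 1 in females only, 1 without Pth or Lipf libraries, 12 without Bpifa1 libraries, 1 with the mouse number covariate and 0 to 12 on leaving out 1 library (1, 0 and 0 without NT 2, 4 and 6, and 12 and 9 without NCT 7 and 8). Genes called in PL against NCT (1433) numbered 450 in females only, 797 without Pth or Lipf libraries, 464 with the mouse number covariate and 1126 to 1655 on leaving out 1 library.

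The 1 member called lower in PL against NT became 4 with DESeq2 and 0 with no filter, in females only, without Pth or Lipf mice, without Bpifa1 mice and without the replicate block, and ranged from 0 to 1 on leaving out 1 mouse. With no filter the log2 fold change of Cd163 was -1.84 (adjusted p = 0.0975), and in females -1.45 (adjusted p = 0.125). Members called higher in PL against NT (0) were 1 with DESeq2 and 0 to 1 on leaving out 1 mouse. Members called higher in PL against NCT (1) were 3 with DESeq2, 2 with sex as a covariate, 2 with all 27 libraries in 1 fit and 1 to 3 on leaving out 1 library. Members called lower there (0) were 1 with DESeq2, 1 with all 27 libraries and 0 to 1 on leaving out 1 library.

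No fold change that changed sign had been called. In PL against NT, Msr1 turned to -0.32 without Pth or Lipf mice and -0.54 without Bpifa1 mice, Clec7a to -0.34 without Bpifa1 mice, and Ccl2 to -0.013 in females, -0.43 and -0.60. On leaving out 1 mouse Msr1 ranged from -0.055 to 0.62, Ccl2 from -0.16 to 0.58, Cxcl16 from -0.30 to 0.072 and Lyz2 from -0.36 to 0.044. Lyz2 in NT against NCT turned to 0.54 with DESeq2, 0.60 in females, 0.69 without Pth or Lipf libraries and 0.77 without Bpifa1 libraries (-1.81 to 0.58 on leaving out 1 library), and in PL against NCT to 0.48, 0.53, 0.52 and 0.47 (-2.0 to 0.51). Cd163 in NT against NCT ranged from -0.10 to 0.11 on leaving out 1 library. In PL against NCT, Laptm5 turned to -0.039 in females and -0.061 without Bpifa1 libraries (-0.049 to 0.20), Csf1r to -0.0100 without Bpifa1 libraries (-0.082 to 0.18), Csf2ra to 0.063 (-0.18 to 0.038) and C1qb to 0.032 (-0.25 to 0.084) with the mouse number covariate, and Apoe to -8.45e-06 in females and -0.0021 with that covariate (-0.11 to 0.15). C1qc ranged from -0.0015 to 0.28. Apart from NCT 9 for Lyz2, the causes were not tested. Genes near 3 counts, such as Lilrb4a, Fcgr1 and Cd163 in PL 9, are limited by depth.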

Other observations

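Among marker genes of dendritic cells and mast cells, edgeR called 2 lower and 1 higher in lesions against tissue of non-exposed mice. Siglech, a receptor of plasmacytoid dendritic cells, lay at 5.16, 10.6 and 16.4 CPM (lowest, median and highest) in NCT, at 5.92, 8.19 and 11.9 CPM in NT and at 1.14, 4.04 and 6.44 CPM in PL. It fell by 1.54 on the log2 scale in PL against NCT (SE 0.32, adjusted p = 0.00291, edgeR), and every alternative kept that call. For Siglech 9 of 9 lesions were below the NCT median, and the groups overlapped. Cd209a, a lectin of monocyte-derived dendritic cells, lay at 3.99, 7.17 and 34.3 CPM in NCT and at 1.46, 2.81 and 7.04 CPM in PL, and fell by 1.65 (SE 0.41, adjusted p = 0.0103), a call lost in females (adjusted p = 0.0617) and with the mouse number covariate (adjusted p = 0.369). These were the 2 of 7 tested dendritic cell genes that were called, and 0 of 8 were called in PL against NT by edgeR (unadjusted p under 0.05 for 3), while DESeq2 called Clec9a, Siglech and Xcr1 lower. In NT against NCT edgeR and DESeq2 called 0 of 8 (unadjusted p under 0.05 for 1).

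Spp1, which encodes the secreted phosphoprotein osteopontin, was the 1 of 12 tested genes of macrophage states that was called in PL against NCT. It lay at 1.57, 6.55 and 74.9 CPM in NCT, at 11.4, 44.1 and 85.7 CPM in NT and at 3.09, 70.5 and 366 CPM in PL, and rose by 2.61 on the log2 scale (SE 0.78, adjusted p = 0.0435, edgeR). The call was lost on leaving out PL 1, 6, 7, 8 or 9 or any NCT library other than NCT 7, with adjusted p of at most 0.0961 in those fits. It was also lost in females (adjusted p = 0.267), without libraries rich in Pth or Lipf (0.196) or in Bpifa1 (0.122), with the mouse number covariate (0.180) and with no filter on low counts (0.0616). DESeq2 called Mmp12 higher besides Spp1. In PL against NT and NT against NCT edgeR called 0 of 13 genes of that list (unadjusted p under 0.05 for 2 and 2), and DESeq2 called Cd209f lower in PL against NT. Hdc, the histamine-making enzyme of mast cells, rose by 2.44 (SE 0.67, adjusted p = 0.0283), from 2.20, 4.87 and 14.6 CPM in NCT to 1.05, 33.8 and 133 CPM in PL, with the call lost without PL 3 or NCT 1, 2 or 6 (adjusted p of 0.0552, 0.0507, 0.0525 and 0.0504). With the mouse number covariate the log2 fold change of Hdc was 1.29 (adjusted p = 0.542), and the call was also lost in females (2.98, adjusted p = 0.0611) and without libraries rich in Pth or Lipf (3.01, adjusted p = 0.0700). PL 3, the library with the most Hdc, was the lowest lesion for 29 of the 38 macrophage and myeloid genes. Of the 10 mast cell genes, 5 were tested in PL against NCT, 1 with a positive (Hdc) and 4 with a negative fold change (median -0.20). None of these markers besides Hdc was called by edgeR or DESeq2 in that comparison (0 with an unadjusted p under 0.05). In PL against NT and NT against NCT 0 of 4 tested mast cell genes were called by either tool (unadjusted p under 0.05 for 0 and 1).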
